A study of Mus musculus with 9 samples.

Results

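The VEGF and angiopoietin signalling genes of the embryonic mouse kidney were followed through 10 genes: the ligand genes Vegfa, Vegfc and Angpt2, the VEGF receptor genes Kdr, Flt1 and Flt4, the neuropilin genes Nrp1 and Nrp2, and the angiopoietin receptor gene Tek with its relative Tie1. They were chosen by gene symbol, not by their values. Every probe set that the array's annotation gives exactly 1 of these symbols was taken, which made 16 probe sets among the 20380 with 1 symbol, or 10 of 12393 genes. Transcripts were measured on Affymetrix arrays in structures microdissected by their shape from kidneys of wild-type mice of strain 129, at E14.5 (embryonic day) and Theiler stage 22, with the sex of the embryos unknown. The renal vesicle, the first epithelial body of a nephron, and the s-shaped body, the later folded stage, each had 3 samples that pooled 20 structures. The collecting duct, which grows from the ureteric bud and served as the reference tissue, had 3 samples with a pool size of 1. The labels name no treatment, and all RNA went through 2 rounds of amplification.

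VEGF-A is a secreted growth factor that draws endothelial cells towards the tissue that makes it. In the kidney the podocyte precursors of the nephron produce it, and endothelial cells that carry the receptor VEGFR2 enter the cleft of the s-shaped body and build the glomerular capillaries. VEGF-C acts mainly on VEGFR3, and neuropilins bind VEGFs beside these receptors as well as class 3 semaphorins. Angiopoietins act on the endothelial receptor Tie2, which steadies vessels, and angiopoietin-2 can oppose that signal.

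The transcripts of this system were highest in the s-shaped body. The highest mean of the 3 structures lay there for 16 of 16 probe sets, a pattern whose share over all probe sets was not counted. All 3 s-shaped body arrays stood above all 6 others for 14 of 16, a stricter pattern held by 9.6% of all 20380 probe sets. The exceptions were Nrp2 and the Flt1 probe set 1454037_a_at. The renal vesicle had a mixed pattern, with Nrp1, Vegfc, Tek and Angpt2 above the collecting duct while Vegfa, Kdr and the brighter Flt4 probe set missed the threshold, each passing in at most 1 of the settings tried. In such bulk samples, more cells of a type and more RNA per cell cannot be told apart.

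**Figure D1:**
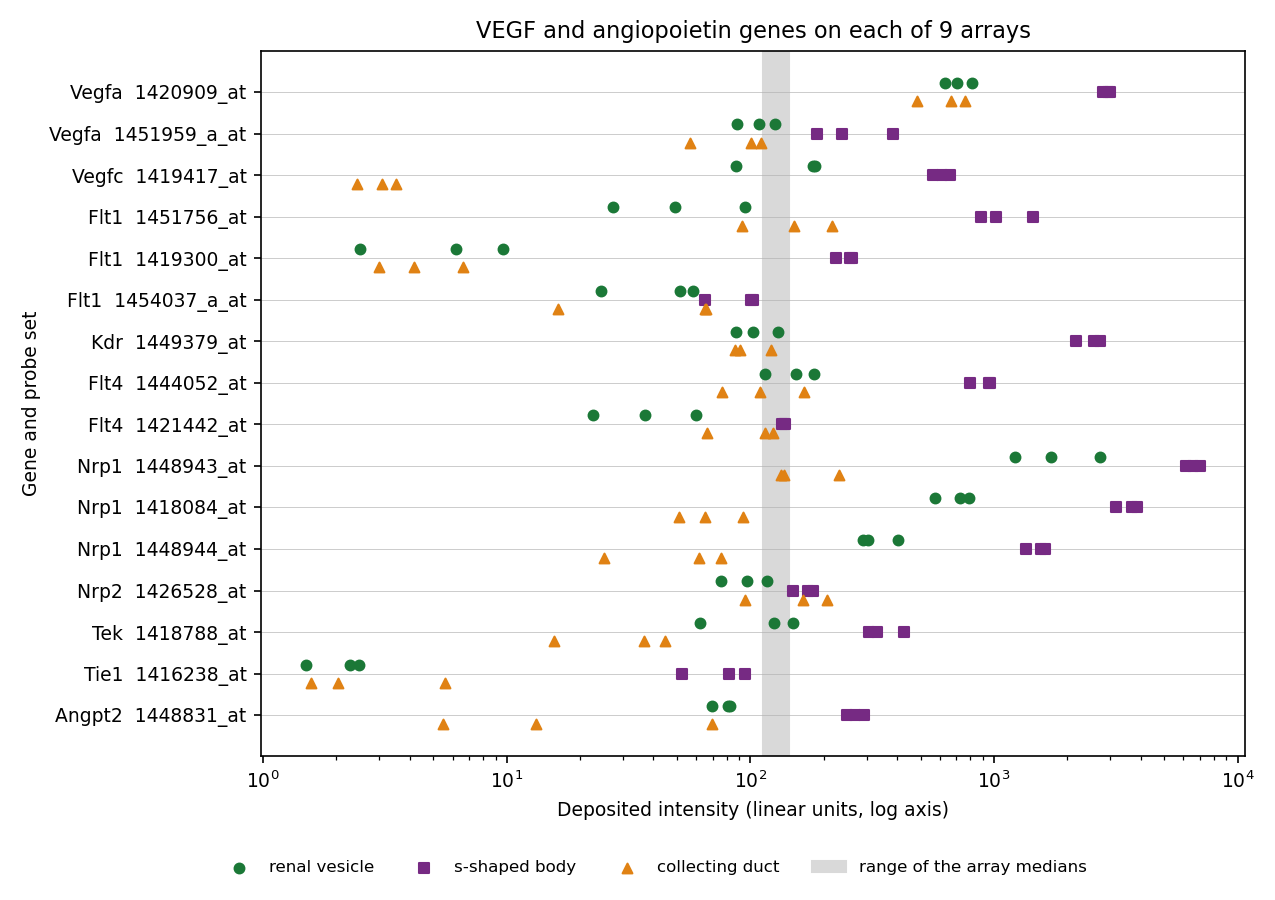
Deposited intensity of each of the 16 probe sets (linear units on a log axis) on 3 renal vesicle, 3 s-shaped body and 3 collecting duct arrays, 1 point per array, with the range of the array medians (112.3 to 144.8) shaded. The s-shaped body points lie to the right of all others except for Nrp2 and the Flt1 probe set 1454037_a_at; brightness is comparable between arrays of 1 probe set, not between probe sets.

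The makeup of the samples was read from marker genes on the same arrays. Summed intensities of 14 endothelial marker genes were 31683 to 36886 units for the s-shaped body, 5294 to 10457 for the renal vesicle and 937 to 1199.6 for the collecting duct. Most of the renal vesicle sum came from Cldn5, a claudin of endothelium and also of podocytes. The other 13 endothelial genes summed to 757 to 1144 units there, against 884 to 1189 in the collecting duct and 16355 to 17686 in the s-shaped body. On the s-shaped body arrays 12 of 14 endothelial genes were above the array median on all 3 arrays. The exceptions were Erg, below it on each of them, and Pecam1. Pecam1 was below it on replicates 1 and 2, at 131.2 and 103.9 units against medians of 131.9 and 131.4. In the renal vesicle 9 of 14 were below it on every array, among them the defining genes Pecam1 and Cdh5, and 10 of 14 were in the collecting duct. Podocyte, mural and stromal, erythroid and macrophage sums were also highest in the s-shaped body, as the plot of summed markers shows. The 6 podocyte genes summed to 46772 to 54788 units in the s-shaped body, 2492 to 9878 in the renal vesicle and 563 to 604 in the collecting duct. The 8 mural and stromal genes summed to 12551 to 14158, 1792 to 2683 and 2515 to 3216 units in the same order, the 5 erythroid genes to 18330 to 21977, 435 to 2563 and 82.6 to 2440.3, and the 6 macrophage genes to 2984 to 3530.3, 259 to 519 and 433 to 611. Single genes made up most of some sums. Without Hbb-y the erythroid genes summed to 830 to 1200.4 units in the s-shaped body, 78.2 to 137.2 in the renal vesicle and 77.3 to 129.65 in the collecting duct. Csf1r alone gave 2696 to 3114.9 of the macrophage units in the s-shaped body, where 4 of 6 macrophage genes were below the array median on every array. Renal vesicle replicate 3 had the highest podocyte sum of its group. Its endothelial sum was the highest with Cldn5 (9700 units on that array) and the lowest without it, at 757 against 845 and 1144. Collecting duct replicate 2 was the only duct array with bright Hbb-y, an embryonic globin gene, at 2313 units against 1.48 and 5.3. The other erythroid genes did not set it apart, with a sum of 127.1 units against 129.65 and 77.3 on the other duct arrays. Of the marker genes fixed for the structures themselves, 4 of 5 renal vesicle genes were above the array median on all renal vesicle arrays, with Fgf8 below it throughout. In the collecting duct 4 of 8 duct genes were, with the ureteric tip genes Calb1 and Wnt11 below it on every array. Calb1 was bright instead on renal vesicle replicates 1 and 2, at 6589 and 9324 units, with 341 on replicate 3 and 54.7 to 72.5 in the collecting duct. These counts did not set the 2 structures clearly apart. On all renal vesicle arrays 5 of 8 duct genes were above the array median, and on all collecting duct arrays 2 of 5 renal vesicle genes were (Wnt4 and Pax8). The part of sample makeup in the differences described here was not tested.

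**Figure D2:**
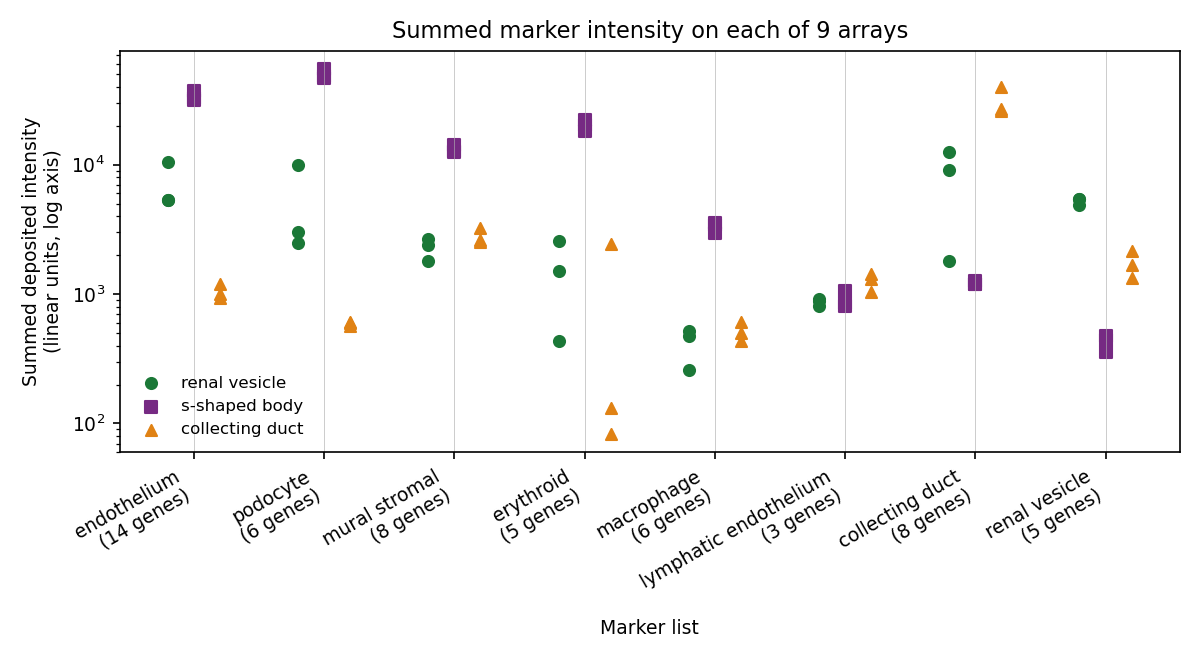
Summed deposited intensity (linear units, log axis) of the genes of each marker list on the 9 arrays, 1 point per array. Endothelial, podocyte, mural and stromal, erythroid and macrophage sums are highest on the s-shaped body arrays, while the renal vesicle list sums to 4918 to 5442 units in the renal vesicle and 359 to 476 in the s-shaped body.

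Promoter sequence is shown for the ligand gene Vegfa and for 4 receptor genes that were highest together in the s-shaped body, so that the shared and unshared elements can be read directly. Each stretch is the 250 bases before the transcript start in RefSeq, build GRCm38.p6, read 5′ to 3′ on the gene's own strand. Capitals mark GGAAG or its complement read on the other strand, the core bound by ETS factors, a family known for endothelial promoters. The windows are chr17:46032378-46032627 (minus strand) for Vegfa, of whose 2 listed starts the upstream one is shown, chr5:75978456-75978705 (minus) for Kdr, chr5:147726012-147726261 (minus) for Flt1, chr4:94739039-94739288 (plus) for Tek and chr4:118489850-118490099 (minus) for Tie1.
Vegfa: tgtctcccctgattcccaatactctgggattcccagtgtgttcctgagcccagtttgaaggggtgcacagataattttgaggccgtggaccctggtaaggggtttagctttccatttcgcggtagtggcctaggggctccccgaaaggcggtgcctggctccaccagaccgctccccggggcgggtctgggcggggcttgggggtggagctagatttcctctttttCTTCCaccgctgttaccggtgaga
Kdr: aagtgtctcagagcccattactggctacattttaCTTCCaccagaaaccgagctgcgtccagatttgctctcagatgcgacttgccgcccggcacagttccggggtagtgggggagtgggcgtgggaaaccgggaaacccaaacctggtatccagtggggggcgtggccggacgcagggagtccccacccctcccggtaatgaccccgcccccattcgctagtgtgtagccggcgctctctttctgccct
Flt1: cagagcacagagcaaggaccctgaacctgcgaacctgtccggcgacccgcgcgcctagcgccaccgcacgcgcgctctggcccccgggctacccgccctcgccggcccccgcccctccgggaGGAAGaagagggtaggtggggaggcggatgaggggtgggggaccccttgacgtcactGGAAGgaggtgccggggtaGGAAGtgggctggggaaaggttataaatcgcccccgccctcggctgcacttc
Tek: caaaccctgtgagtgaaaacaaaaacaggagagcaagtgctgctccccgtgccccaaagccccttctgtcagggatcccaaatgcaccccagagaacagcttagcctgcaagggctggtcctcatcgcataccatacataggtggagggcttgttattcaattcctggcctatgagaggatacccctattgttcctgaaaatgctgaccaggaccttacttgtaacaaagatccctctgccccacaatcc
Tie1: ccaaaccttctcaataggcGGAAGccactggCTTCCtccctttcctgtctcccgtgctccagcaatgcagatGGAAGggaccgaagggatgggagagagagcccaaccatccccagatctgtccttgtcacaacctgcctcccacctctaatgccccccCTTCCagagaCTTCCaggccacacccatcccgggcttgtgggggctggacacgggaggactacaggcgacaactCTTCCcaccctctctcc

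Other forms of the ETS core were not counted, and the Tek window holds TTCC, which is GGAA on the other strand. GGAAG occurred 6 times in Tie1, 3 times in Flt1, once in Kdr and once in Vegfa, and 0 times in Tek. Of 10 start sites listed for 9 members, 7 held it, and so did 64.1% of all 32851 promoter windows of that length. GGGCGG, the GC box read by Sp1, was in 8 of the 10 (32.7% of all windows) but in neither Tek nor Tie1. TATAAA was found only in Flt1, 31 bases before the start, against 12.4% of all windows. ACGTG, a form of the core read by hypoxia-inducible factors, was found only at the downstream start of Vegfa (16.6% of all windows). The form GCGTG was not counted. The Kdr window shown holds it, and the Flt1 window holds it on the other strand, so absence of this core from the other members was not tested. All 4 motifs were sought on both strands, and 0 matches of different motifs overlapped. The matches describe letters in these windows and no binding was measured.

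Vegfa was read by 2 probe sets, and both were higher in the s-shaped body than in either other structure. The brighter one, 1420909_at, gave 631, 809 and 708 units in the renal vesicle, 2999, 2798 and 2939.7 in the s-shaped body, with 757, 485 and 669 in the collecting duct. All s-shaped body arrays were thus well clear of the rest, and the renal vesicle and collecting duct arrays overlapped. Differences were estimated with limma on a log2 scale after adding 26 units and quantile normalization, with p-values adjusted by the Benjamini-Hochberg method over all 11595 probe sets tested. On that scale Vegfa was 2.19 higher in the s-shaped body than in the duct (SE 0.19, 4.55-fold, adjusted p = 2.2e-06, n = 3 arrays per structure). Against the renal vesicle it was 1.95 higher (SE 0.19, 3.87-fold, adjusted p = 1.0e-05). Renal vesicle and collecting duct differed by 0.24, with a 95% interval from -0.17 to 0.64 (adjusted p = 0.38). That difference passed only with array weights in the fit, which let noisier arrays count for less (0.52, adjusted p = 0.016). The dimmer probe set, 1451959_a_at, gave 188, 384 and 238 units in the s-shaped body against 88.6 to 126.5 in the renal vesicle and 56.3 to 110.8 in the collecting duct. It differed by 1.36 (SE 0.26, adjusted p = 0.0017) and 0.94 (SE 0.26, adjusted p = 0.015) in the same comparisons. The smaller of these calls was lost without renal vesicle replicate 1 (0.87, adjusted p = 0.055) and without s-shaped body replicate 2 (0.68, adjusted p = 0.072).

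Vegfc, the gene of the ligand best known for lymphatic growth, had its 3 structures fully apart. Its probe set gave 184, 181 and 87.6 units in the renal vesicle, 614, 562 and 661 in the s-shaped body, with 3.09, 3.51 and 2.43 in the collecting duct. The collecting duct arrays were close to the bottom of the scale, so their folds are understated by the added 26 units. The renal vesicle was 2.66 log2 units above the collecting duct (SE 0.25, 6.33-fold, adjusted p = 9.1e-06) and the s-shaped body 4.44 (SE 0.25, 21.7-fold, adjusted p = 8.5e-08). The step from renal vesicle to s-shaped body was 1.78 (SE 0.25, adjusted p = 0.00020). The lymphatic markers Prox1 and Lyve1 were below the array median on all 9 arrays. Pdpn, the other marker of that list, was above it on all 9, at 721 to 1322 units.

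Angpt2, whose product binds Tie2, also had 3 levels. It gave 69.8, 82.3 and 81.1 units in the renal vesicle, 249, 269.9 and 293 in the s-shaped body, with 13.2, 69.7 and 5.47 in the collecting duct. Collecting duct replicate 2 lay just under the lowest renal vesicle array, while the other 2 duct arrays were far lower. The s-shaped body exceeded the collecting duct by 2.58 (SE 0.33, 5.98-fold, adjusted p = 7.4e-05) and the renal vesicle by 1.36 (SE 0.33, adjusted p = 0.0075). The renal vesicle exceeded the collecting duct by 1.23 (SE 0.33, adjusted p = 0.016), and by 1.67 without collecting duct replicate 2 (adjusted p = 0.00065). Array weights in the fit reduced it to 0.60 (adjusted p = 0.085). Angpt2 was above the array median on s-shaped body arrays only.

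Kdr encodes VEGFR2, the main signalling receptor for VEGF-A on endothelium. Its probe set gave 102.3, 129.6 and 87.4 units in the renal vesicle, 2584, 2181 and 2735 in the s-shaped body, with 90.7, 86.9 and 121.5 in the collecting duct. The s-shaped body arrays were far above the others, which overlapped. The s-shaped body exceeded the collecting duct by 4.42 (SE 0.18, 21.5-fold, adjusted p = 7.8e-09) and the renal vesicle by 4.17 (SE 0.18, 18.0-fold, adjusted p = 1.6e-07). Between renal vesicle and collecting duct the difference was 0.25, with a 95% interval from -0.15 to 0.65 (adjusted p = 0.33). That difference passed only with array weights (0.46, adjusted p = 0.022).

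Flt1 encodes VEGFR1, a receptor that binds VEGF-A tightly and can act as a decoy. Of its 3 probe sets, 1451756_at was the brightest, with 27.3, 94.9 and 49.0 units in the renal vesicle, 886, 1453 and 1024 in the s-shaped body, against 150.7, 92.3 and 216 in the collecting duct. The second, 1419300_at, gave 2.50, 6.21 and 9.63 in the renal vesicle, 258, 261 and 226 in the s-shaped body, with 2.99, 6.64 and 4.18 in the collecting duct. Both were highest on the s-shaped body arrays, and the first was also above the array median on collecting duct replicates 1 and 3. The s-shaped body exceeded the collecting duct by 2.76 (SE 0.33, adjusted p = 3.5e-05) and 3.13 (SE 0.26, adjusted p = 1.8e-06) with these probe sets, and the renal vesicle by 3.74 (SE 0.33, adjusted p = 5.3e-06) and 3.01 (SE 0.26, adjusted p = 5.0e-06).

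The Flt1 probe sets disagreed on renal vesicle against collecting duct. The brightest was 0.98 lower in the renal vesicle (SE 0.33, adjusted p = 0.040), although the arrays overlapped, and the second differed by 0.12 (SE 0.26, adjusted p = 0.76). The first call did not hold in 9 of the alternative settings, among them no filter (adjusted p = 0.084), array weights (-0.41, adjusted p = 0.27) and a fit to only these 2 structures (adjusted p = 0.076). Leaving out an array ended it for renal vesicle replicate 1 (-0.72, adjusted p = 0.16) or 3 (-0.94, adjusted p = 0.093), collecting duct replicate 1 (-0.93, adjusted p = 0.082) or 3 (-0.75, adjusted p = 0.12), and s-shaped body replicate 1 (-0.98, adjusted p = 0.051) or 3 (-0.98, adjusted p = 0.058). The third probe set, 1454037_a_at, was below the array median on every array, with 65.3 to 102.7 units in the s-shaped body, 24.3 to 58.2 in the renal vesicle and 16.2 to 65.7 in the collecting duct, and failed the filter. With no filter it passed in no comparison (adjusted p = 0.84, 0.19 and 0.28). Which Flt1 transcripts each probe set reads was not analysed here.

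Flt4 encodes VEGFR3, the receptor of VEGF-C, found on embryonic vessels and later mainly on lymphatic endothelium. Its brighter probe set, 1444052_at, gave 154, 115.2 and 183 units in the renal vesicle, 952, 968 and 794 in the s-shaped body, with 76.8, 110.1 and 166 in the collecting duct. The s-shaped body exceeded the collecting duct by 2.77 (SE 0.22, 6.83-fold, adjusted p = 1.5e-06) and the renal vesicle by 2.29 (SE 0.22, 4.89-fold, adjusted p = 1.3e-05). Renal vesicle and collecting duct arrays overlapped and differed by 0.48 (adjusted p = 0.13), a difference that passed without collecting duct replicate 3 (0.68, adjusted p = 0.030). The other probe set, 1421442_at, was above the array median on only 2 arrays and failed the filter. It too was highest in the s-shaped body, at 134.9 to 138.3 units, but its collecting duct arrays (66.6 to 123.9) lay above its renal vesicle arrays (22.6 to 59.8). With no filter on dim probe sets it was lower in the renal vesicle against the duct (-0.81, SE 0.25, limma adjusted p = 0.049), where the brighter probe set was 0.48 higher without passing. In that fit it was 1.21 higher in the s-shaped body than in the renal vesicle (SE 0.25, adjusted p = 0.0060) and differed from the duct by 0.40 (adjusted p = 0.33).

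Nrp1, which encodes a co-receptor for VEGF-A and a receptor for semaphorin 3A, showed 3 separate levels with each of its 3 probe sets. The brightest, 1448943_at, gave 1224, 1709 and 2723 units in the renal vesicle, 7029.6, 6560.1 and 6149.7 in the s-shaped body, with 232, 137 and 134 in the collecting duct. With 1418084_at the values were 572, 787 and 727 in the renal vesicle, 3686, 3849.8 and 3183 in the s-shaped body, with 50.8, 93.3 and 65.3 in the collecting duct. The third, 1448944_at, ran from 289.96 to 406 in the renal vesicle, 1359 to 1628 in the s-shaped body, with 25.1 to 75.7 in the collecting duct. No structure overlapped another with any of the 3.

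The renal vesicle exceeded the collecting duct in Nrp1 by 3.32 (SE 0.28, 9.97-fold, adjusted p = 4.1e-06), 3.04 (SE 0.19, adjusted p = 4.4e-07) and 2.34 (SE 0.26, adjusted p = 3.6e-05) with the 3 probe sets in that order. The s-shaped body exceeded the collecting duct by 5.24, 5.35 and 4.39, with the largest of these at SE 0.19 and 40.7-fold (adjusted p = 6.1e-09). From renal vesicle to s-shaped body Nrp1 rose by 1.92 (adjusted p = 0.00028), 2.31 (adjusted p = 4.4e-06) and 2.05 (adjusted p = 9.0e-05). Nrp2, which encodes the neuropilin of semaphorin 3F and of VEGF-C, was read by a single probe set and passed in no comparison. It gave 76.1, 97.3 and 117.3 units in the renal vesicle, 173, 150.3 and 182 in the s-shaped body, with 95.4, 164 and 207 in the collecting duct. The s-shaped body arrays lay inside the range of the collecting duct, and the difference of 0.13 had a 95% interval from -0.38 to 0.64 (adjusted p = 0.72). Against the renal vesicle the difference was 0.51 (adjusted p = 0.11), which passed only with array weights (0.53, adjusted p = 0.032), although those arrays did not overlap.

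Tek encodes Tie2, the endothelial receptor of the angiopoietins. It gave 125.6, 149.9 and 61.9 units in the renal vesicle, 331, 427 and 308 in the s-shaped body, with 36.7, 44.5 and 15.7 in the collecting duct. The 3 structures were apart on all arrays. The s-shaped body exceeded the collecting duct by 2.73 (SE 0.30, 6.66-fold, adjusted p = 1.8e-05) and the renal vesicle by 1.36 (SE 0.30, adjusted p = 0.0040). The renal vesicle exceeded the collecting duct by 1.38 (SE 0.30, 2.60-fold, adjusted p = 0.0044). Renal vesicle replicate 3 had the lowest Tek of its group. Without it the difference was 1.69 (adjusted p = 0.0010).

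Tie1, an endothelial receptor without an established ligand of its own that modifies Tie2 signalling, was dim throughout. It gave 1.5, 2.48 and 2.27 units in the renal vesicle, 95.4, 52.3 and 82.0 in the s-shaped body, with 2.04, 5.59 and 1.58 in the collecting duct. It was below the array median on every array and so did not enter the tests of the 11595 probe sets. With no filter on dim probe sets, it was 1.78 higher in the s-shaped body than in the duct (SE 0.17, adjusted p = 3.4e-05 in limma over 20380 probe sets) and 1.80 higher than in the renal vesicle (SE 0.17, adjusted p = 5.4e-05). The added 26 units hold these differences far below the ratio of the intensities.

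Counted over probe sets, 13 of 16 passed the filter, from 9 of 10 genes, and 2 of those 13 (Angpt2 and Flt1 1419300_at) passed through the s-shaped body arrays alone. Of the 13, 12 were higher and 0 were lower in the s-shaped body against the collecting duct, where 15.2% of all probe sets tested were higher and 14.1% lower. Against the renal vesicle 12 were higher and 0 lower, where 16.7% and 17.4% of all were. In the renal vesicle 6 were higher than in the duct, where 15.2% of all were, and 1 was lower, where 13.8% were. Because a filter on brightness favours probe sets that are bright in 1 structure, the counts were also taken without it over all 16. There 13 were higher in the s-shaped body than in the duct (9.28% of 20380) and 14 higher than in the renal vesicle (9.95%), with 0 lower in either (8.18% and 9.5% of all were lower). In the renal vesicle 6 were higher (8.18%) and 1 was lower (7.89%) than in the duct. The lower one was then Flt4 1421442_at in place of Flt1 1451756_at, whose call was lost without the filter. The median difference over the 16 was 2.75, 1.86 and 0.33 in these 3 comparisons, and the medians of all probe sets tested lay between -0.05 and 0.03. Comparisons with the collecting duct share its arrays, so the counts are not independent of each other.

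**Figure D3:**
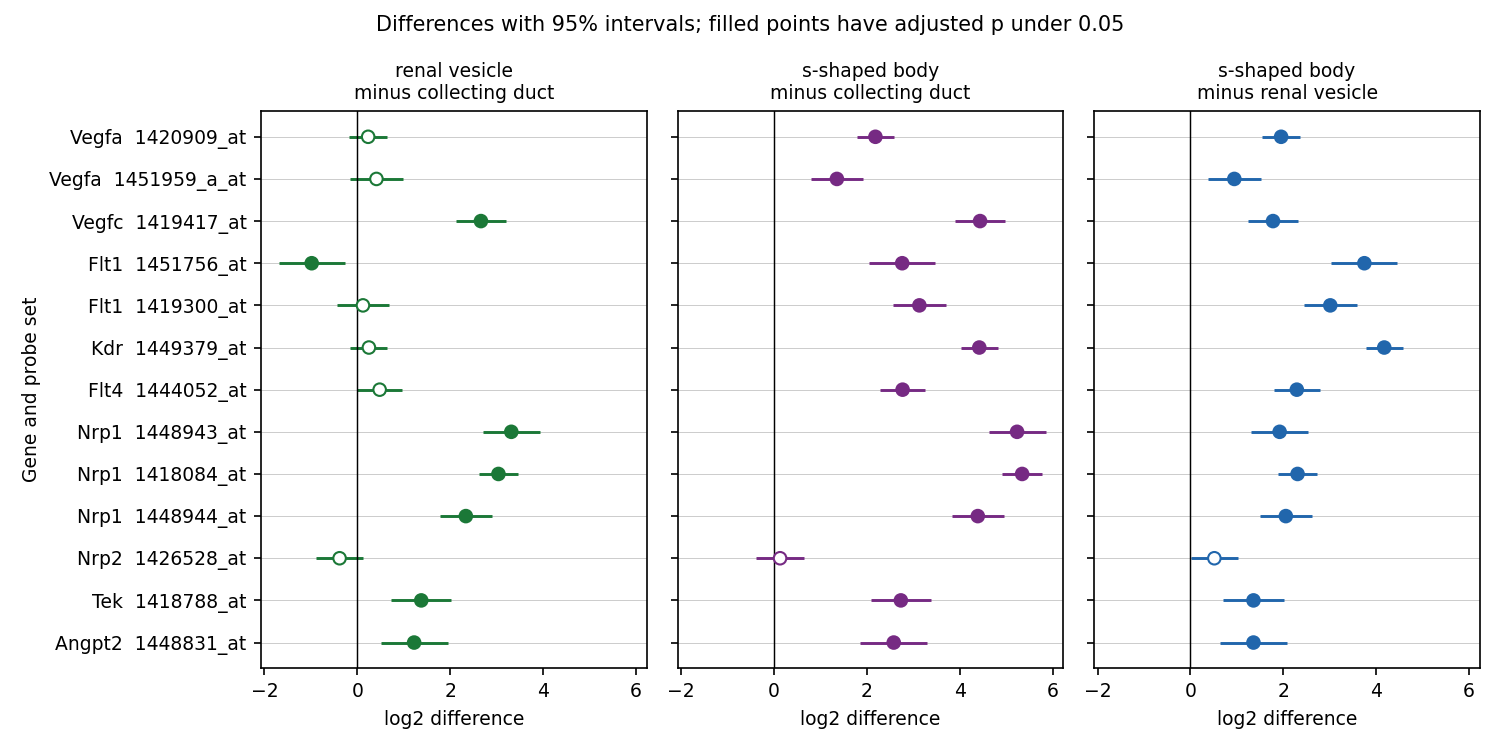
Log2 differences of the 13 tested probe sets in the 3 comparisons, with 95% intervals from limma; filled points have an adjusted p under 0.05. Every tested probe set except that of Nrp2 is higher in the s-shaped body than in both other structures, while Nrp1, Vegfc, Tek and Angpt2 are also higher in the renal vesicle against the duct.

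Genes around the members are described by their brightest tested probe set. Of all 7998 genes taken that way, 15.3% were higher and 15.4% lower in the renal vesicle against the collecting duct, 16.6% and 15.3% in the s-shaped body against the duct, and 18.3% and 17.4% in the s-shaped body against the renal vesicle. Most other ligand genes of the family gave little signal. Of 9 measured, 3 were bright enough to test, and 1 of these (Vegfd) passed the filter through the s-shaped body arrays alone. Vegfd, which encodes a second ligand of VEGFR3, gave 211, 229.8 and 301 units in the s-shaped body against 87.0 to 111.9 in the renal vesicle and 39.7 to 104.3 in the collecting duct. It was higher in the s-shaped body than in the duct (1.57, SE 0.24, adjusted p = 0.00027) and the renal vesicle (1.00, SE 0.24, adjusted p = 0.0061). Angptl6 was lower than in the duct in the s-shaped body (-1.08, SE 0.36, adjusted p = 0.041) and the renal vesicle (-1.04, SE 0.36, adjusted p = 0.048), and Angptl4 passed in no comparison. With no filter 0 of all 9 were lower in either. Angpt1, the activating ligand of Tie2, read 1.69 to 5.10 units over the 9 arrays with its only probe set, below the array median throughout. Vegfb and Pgf, which encode ligands of VEGFR1, were also below it on every array, although Pgf gave 57.9 to 109.3 units in the s-shaped body against 4.35 to 26.1 elsewhere.

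Partners of the neuropilins moved in both directions. Of 9 tested, 2 were higher in the s-shaped body than in the duct and 2 were lower, 3 higher and 3 lower than in the renal vesicle, and 2 higher and 3 lower in the renal vesicle against the duct. Of all genes tested, 16.6% and 15.3%, 18.3% and 17.4%, and 15.3% and 15.4% were higher and lower in that order. With no filter the counts among all 10 were 2 and 2, 3 and 3, and 1 and 2. The shares of all genes were then 10.9% and 9.87%, 11.9% and 10.7%, and 9.16% and 9.66%. Of the 9, 1 (Sema3e) had passed the filter through the s-shaped body arrays alone. Plxnd1, which encodes the endothelial receptor of semaphorin 3E, gave 145.4, 130.2 and 256 units in the renal vesicle, 782, 914 and 871 in the s-shaped body, with 14.6, 36.4 and 106.1 in the collecting duct. It exceeded the collecting duct by 3.73 in the s-shaped body (SE 0.34, adjusted p = 3.7e-06) and by 1.68 in the renal vesicle (SE 0.34, adjusted p = 0.0028). Sema3e, which encodes that ligand, was 2.30 higher in the s-shaped body than in the duct (SE 0.30, adjusted p = 8.6e-05) and 2.37 higher than in the renal vesicle (SE 0.30, adjusted p = 9.2e-05). Sema3a, the gene of the main Nrp1 semaphorin, was lower in the s-shaped body than in the renal vesicle (-0.78, SE 0.24, adjusted p = 0.023) and higher in the renal vesicle against the duct (0.69, SE 0.24, adjusted p = 0.045). Its renal vesicle arrays (303 to 551 units) overlapped those of the duct (220 to 364). Sema3c and Sema3f, which encode further neuropilin ligands, were lower in the s-shaped body than in the duct, with differences of -1.34 (SE 0.23, adjusted p = 0.00064) and -0.76 (SE 0.20, adjusted p = 0.011). They were also lower there than in the renal vesicle (-0.82, adjusted p = 0.014, and -1.15, adjusted p = 0.00080), although the Sema3c arrays of these structures overlapped. Plxna2 was lower in the renal vesicle against the duct (-1.51, adjusted p = 0.00021) and the s-shaped body lay 1.09 above the renal vesicle (adjusted p = 0.0017). Sema3b (-1.0, adjusted p = 0.010) and Gipc1 (-0.57, adjusted p = 0.038), whose product binds the tail of neuropilin-1, were lower in the renal vesicle against the duct. Plxna3 passed in no comparison.

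Genes that set the response to low oxygen, a known regulator of Vegfa, also differed. Of 6 tested, 2 were higher in the s-shaped body than in the duct and 2 were lower, 4 higher and 1 lower than in the renal vesicle, and 0 higher and 2 lower in the renal vesicle against the duct. The shares of all genes tested were 16.6% and 15.3%, 18.3% and 17.4%, and 15.3% and 15.4% in that order. Of the 6, 1 (Epas1) had passed the filter through the s-shaped body arrays alone. Epas1, which encodes HIF-2alpha, an endothelial as well as epithelial factor, gave 331, 491 and 414 units in the s-shaped body against 50.2 to 89.5 in the renal vesicle and 56.6 to 95.8 in the collecting duct. It exceeded them by 2.07 (SE 0.24, adjusted p = 4.9e-05) and 2.11 (SE 0.24, adjusted p = 2.7e-05). Egln3, an oxygen-sensing hydroxylase gene that hypoxia-inducible factors induce, was dim in the renal vesicle (106.9, 193 and 170 units) and bright in the s-shaped body (2086, 2205 and 2262) and the collecting duct (1562, 1395 and 1069). Egln3 was 2.82 lower in the renal vesicle against the duct (SE 0.20, adjusted p = 7.8e-07). Vegfa differed by 0.24 in that comparison, and a link between these genes was not tested. Hif1a passed in no comparison (-0.26 to 0.15), Hif3a was lower than in the duct in both nephron structures (-2.03, SE 0.22, and -1.32, SE 0.22), and Egln1 was lower in the s-shaped body than in the duct (-0.87, SE 0.16, adjusted p = 0.0012).

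Genes known to respond to VEGF in endothelium moved in both directions against the collecting duct. Of 9 tested, 5 were higher in the s-shaped body than in the duct and 2 were lower, 5 higher and 0 lower than in the renal vesicle, and 1 higher and 3 lower in the renal vesicle against the duct. For all genes tested the shares were 16.6% and 15.3%, 18.3% and 17.4%, and 15.3% and 15.4% in that order. Aplnr, the apelin receptor gene, gave 182, 414 and 46.1 units in the renal vesicle, 6324, 5688 and 6533 in the s-shaped body, with 40.3, 31.5 and 85.7 in the collecting duct. It exceeded the collecting duct by 6.48 in the s-shaped body (SE 0.48, adjusted p = 7.7e-07). Of the 9 tested, 2 (Esm1 among them) had passed the filter through the s-shaped body arrays alone. With no filter, 6 of all 12 response genes were higher in the s-shaped body than in the duct and 2 were lower, where 10.9% and 9.87% of all genes were. In the renal vesicle against the duct 0 were higher and 2 were lower, where 9.16% and 9.66% of all genes were. Esm1, a secreted proteoglycan gene of endothelial tip cells, was at 279 to 407 units in the s-shaped body and at 2.49 to 5.85 in all other arrays (3.46, SE 0.27, against the collecting duct, adjusted p = 1.0e-06). Nr4a1 and Egr1, which many stimuli induce at once, were lower than in the duct in both nephron structures, with Nr4a1 at -3.16 in the renal vesicle (SE 0.21) and -1.57 in the s-shaped body (SE 0.21) and Egr1 at -1.32 and -1.69 (SE 0.17 for both). Of 24 tested genes of signal transduction below the receptors, 4 were higher in the s-shaped body than in the duct and 3 were lower, and 11 were higher and 0 lower than in the renal vesicle. The renal vesicle had 1 higher and 7 lower than the collecting duct. Of the 24, 2 (Ptprb and Nos3) had passed the filter through the s-shaped body arrays alone. With no filter, 4 of all 26 were higher in the s-shaped body than in the duct and 3 were lower, where 10.9% and 9.87% of all genes were. The largest rise against the duct among the 24 was that of Ptprb (2.85, SE 0.26, adjusted p = 3.6e-06), which encodes the endothelial phosphatase that acts on Tie2. Fyn, a Src-family kinase gene (2.26, SE 0.27), and Nos3, the endothelial nitric oxide synthase gene (1.62, SE 0.20), were also higher in the s-shaped body than in the duct. Sphk1, a sphingosine kinase gene, was lower there (-1.23, SE 0.19, adjusted p = 0.00033).

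**Figure D4:**
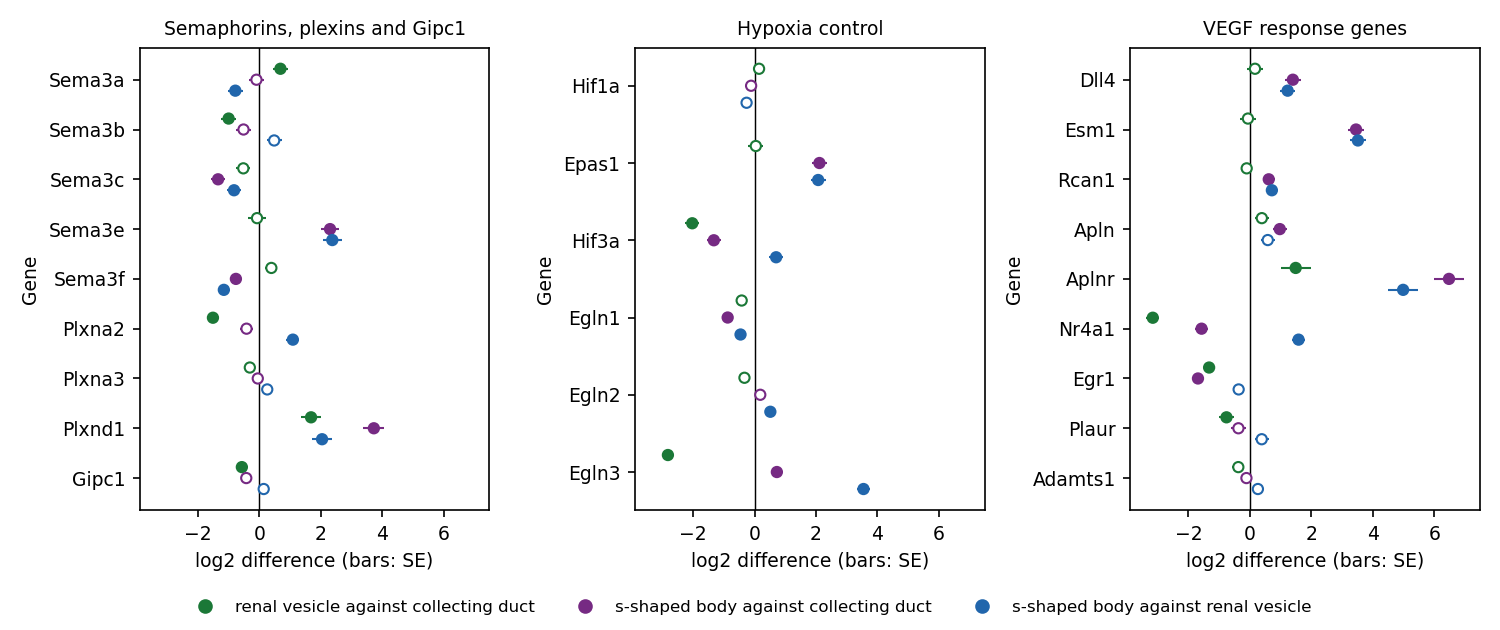
Log2 differences (bars: SE, n = 3 arrays per structure) of the tested neuropilin partners, hypoxia control genes and VEGF response genes in the 3 comparisons, with filled points at an adjusted p under 0.05. Plxnd1, Epas1, Esm1 and Aplnr stand to the right in both s-shaped body comparisons, and Egln3 is lowest in the renal vesicle.

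The endothelial markers moved with the receptors. Of 12 tested, 12 were higher in the s-shaped body than in the duct and than in the renal vesicle, but 6 of the 12 had passed the filter through the s-shaped body arrays alone. With no filter, 13 of all 14 were higher in both comparisons (medians 2.99 and 2.59), where 10.9% and 11.9% of all 12393 genes were (medians -0.04 and -0.02). Cldn5 (8.15, SE 0.33), Sox17 (5.36, SE 0.23), Icam2 (6.67, SE 0.35) and Plvap (5.33, SE 0.34) had the smallest adjusted p against the collecting duct. Between renal vesicle and collecting duct 2 of the 12 were higher, Cldn5 (6.51, SE 0.33, adjusted p = 6.1e-08) and Icam2 (1.16, SE 0.35, adjusted p = 0.028), and Sox17 was lower (-0.85, SE 0.23, adjusted p = 0.015). In this comparison, in which Nrp1, Vegfc, Tek and Angpt2 were higher, 9 of 12 endothelial markers did not pass, and neither did 5544 of all 7998 genes. With no filter 1 of 14 endothelial markers was higher there and 1 was lower, where 9.16% and 9.66% of all genes were. Whether endothelial content has a part in the higher values of the members was not tested. Of 6 podocyte markers, 3 were higher in the renal vesicle against the duct (Wt1, Tcf21 and Ptpro), as were 4 of 8 mural and stromal markers (Pdgfrb, Foxd1, Acta2 and Col3a1) with 2 lower (Rgs5 and Notch3). Ptpro (limma adjusted p = 0.048) was bright only on renal vesicle replicate 3, with 85.3, 120.5 and 1578 units there against 35.2, 36.6 and 102.2 in the duct, and its arrays overlapped. With no filter 2 of the 6 podocyte markers were higher in the renal vesicle against the duct. All 6 podocyte markers and 6 of 8 mural and stromal markers were higher in the s-shaped body than in the duct. With no filter, 4 of 5 erythroid and 2 of 6 macrophage markers were higher there as well, and 0 of 5 and 1 of 6 in the renal vesicle against the duct. Pdpn, the 1 lymphatic marker tested, passed in no comparison.

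Genes whose pattern was most like that of a member were sought by the root mean square difference of mean-centred log2 values over the 9 arrays, among 7998 genes. Closest to Vegfa were Igf1 (0.16 log2 units), Gja4 (0.18), Tnfaip8l1 (0.18), Robo4 (0.20) and Edil3 (0.20), where the median gene was at 1.07. Closest to Kdr were Kcnj8 (0.24), Rhpn1 (0.26), Htra1 (0.28), Gm13889 (0.29) and Gimap1 (0.30), with the median gene at 2.08. Closest to the brightest Flt1 probe set were Arap3 (0.42), Col15a1 (0.45), Sox18 (0.47), Itgb5 (0.51) and Ripor1 (0.53), with the median gene at 1.69.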

How the data were processed

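The authors deposited intensity values on a linear scale, 1 per probe set and array, and GCOS is the tool named per the submitters' processing notes, with no version or algorithm. RNA was amplified in 2 rounds, per the labels' protocols. After trimming 2% of the 22690 probe sets at each end, array means ran from 500.2 to 500.3, which shows a common scaling, and medians ran from 112.3 to 144.8. No detection calls were used. Precision is limited by having 3 arrays per structure. The labels call each sample a biological replicate but do not tie samples to embryos, so p-values measure the spread between these samples.

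A platform annotation of 2016 gave 1 symbol to 20380 probe sets, several to 691 and none to 1555, with 64 controls. Of the 20380, 20351 were found by gene identifier in RefSeq (GRCm38.p6, names only), which changed 0 symbols. Before log2, 26 units (the 20th percentile of the values) were added. Array medians then differed by 0.30, above a limit of 0.25, and arrays were quantile normalized without the controls. Probe sets above their array's median on at least 3 arrays were kept (11595, 7998 genes). Folds are on the log2(value + 26) scale and are understated for dim probe sets. Limma 3.58.1 in R 4.3.3 (lmFit, eBayes with intensity trend) was fitted to all 9 arrays, two-sided, and an adjusted p under 0.05 within a comparison is a call. A gene outside the members was represented by its brightest tested probe set.

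The members and lists were chosen with earlier results of these data known. The rule for names took every member, all tested ligands and neuropilin partners, up to 4 genes of each other list with the smallest adjusted p in s-shaped body against collecting duct, and the 5 genes most like Vegfa, Kdr and Flt1. Other list genes named (Hif1a, Angpt1, Vegfb, Pgf and further marker genes), the 4 promoter motifs, the sums without Cldn5 or Hbb-y, the counts of lists without the filter and the gene-by-gene method for array weights were chosen after values were seen. The procedure was tested on simulated data with 200 changed probe sets per comparison.

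Whether same-numbered samples of different structures deviate together was checked: the correlations were -0.01 to 0.12 for renal vesicle and collecting duct, -0.02 to 0.17 for s-shaped body and collecting duct and -0.05 to 0.10 for the nephron structures, so the numbers were not taken as pairs.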

Additional observations from a re-analysis of the deposited data

How the results depend on the processing

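Over 21 alternative settings, 783 re-estimates of the tested members were made: 767 kept their direction and side of the threshold or stayed uncalled, 12 lost a call, 4 gained one, and 0 calls changed direction. All lost calls concern Flt1 1451756_at and Angpt2 in renal vesicle against collecting duct and Vegfa 1451959_a_at in s-shaped body against renal vesicle. Kdr differed from the collecting duct by 4.17 to 4.63 in the s-shaped body in every setting that tested it. The stricter filter (above the array median on 6 arrays) left 5 member probe sets to test, of which 3 were called in renal vesicle against collecting duct, 5 in s-shaped body against collecting duct and 5 in s-shaped body against renal vesicle; fewer probe sets tested account for these lower counts. Leaving out each array in turn gave 6 to 7, 12 to 12 and 11 to 12 called members in those comparisons, and 2510 to 3503, 2669 to 3646 and 2919 to 4667 called probe sets in all. For renal vesicle against collecting duct, array weights raised the calls from 3360 to 5210 and leaving out renal vesicle replicate 3 with collecting duct replicate 2 lowered them to 2162, the latter with fewer samples; the cause of the former was not tested. With the replicate number as a block the members called were 7, 12 and 12, as without it, and all calls numbered 3469, 3403 and 4041. Median centring moved the median difference of all probe sets to 0.12 in renal vesicle against collecting duct and -0.13 in s-shaped body against renal vesicle, and the share of calls that were higher from 52.3% to 62.2% and from 49.0% to 42.0%, with 45.7% and 54.7% without further normalization; the members' counts stayed at 7 and 12. Signal near the bottom of the scale limits Tie1, Angpt1 and the collecting duct values of Vegfc.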
